A study of Mus musculus with 6 samples.

Results

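Erythroid lineage genes were followed in mouse leukaemia cells with and without the cell-cycle regulator Cdh1. The set held 9 genes, Alas2, Klf1, Gata1, Epor, Slc4a1, Ermap, Car1, Car2 and Hemgn, and all 9 were measured among 18193 genes on the arrays. Each gene was read from the probe set (a group of short probes for 1 transcript) with the highest mean over the 6 arrays, among probe sets annotated to 1 gene symbol. 8 of the 9 had a single probe set, and Slc4a1 had 3. Values are log2 levels after RMA, a method that makes the distributions of all arrays alike, so 1 unit is a doubling. Array medians over all probe sets lay between 5.07 and 5.13. Levels of different genes cannot be set against each other on these arrays, and each gene is compared only with itself across arrays.

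The samples were 3 Cdh1-deficient and 3 Cdh1-intact leukaemias on a C57BL/6 background, with 1 array per moribund mouse. All donors were homozygous for a conditional gene-trap allele of Cdh1 with a floxed cDNA. Donors of the Cdh1-deficient group also carried Mx1-Cre, a recombinase under an interferon-responsive promoter, and those of the Cdh1-intact group, their littermates, did not. Both groups received pIpC, which switches on Mx1-Cre, at 7 to 8 weeks of age. Donor marrow was taken 4 weeks after the last pIpC dose and 2 days after 150 mg/kg 5-fluorouracil, a drug that kills dividing cells. An N-myc cDNA in the retroviral vector pMXs-IG was the transforming gene, and GFP-positive marrow mononuclear cells were sorted for RNA. The GFP gate therefore selects by vector expression and not by blood lineage.

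Red cell precursors arise in marrow from progenitors in which GATA1 and KLF1 switch on globin, heme and membrane genes. Erythropoietin acts through its receptor on the early precursors, and ALAS2 makes heme at the rate that hemoglobin needs. Late precursors carry the anion exchanger band 3 and cytosolic carbonic anhydrases, which together move carbon dioxide in blood. Normal B cells make little of most of these transcripts. In sorted bulk cells, fewer cells of a type and less RNA per cell cannot be told apart.

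Cdh1-intact array 2 stood apart in lineage markers. Cd79b, a chain of the B-cell receptor, lay at 4.35 on that array and at 11.60 to 12.47 on the other 5. The mean level of 13 T and NK cell genes was 8.82 on it, and 4.84 to 6.30 on the other 5. Cdh1-intact array 1 differed from the other 5 in the sex-linked transcripts, which are named here after their values were seen. Xist lay at 6.75 against 12.58 to 13.17, and the Y-linked Eif2s3y at 9.60 against 2.68 to 3.22. By these transcripts it was the only male sample, so sex and other traits of that array cannot be told apart. The gene for the study's Cdh1, Fzr1, lay at 8.10, 7.73 and 8.22 on Cdh1-deficient arrays 1, 2 and 3, and at 8.92, 8.04 and 8.92 on Cdh1-intact arrays 1, 2 and 3, so the groups overlapped. Mycn lay at 13.62 ± 0.12 in Cdh1-deficient and 13.35 ± 0.20 in Cdh1-intact cells (SD, n = 3 each).

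None of the 9 genes passed the test between Cdh1-deficient and Cdh1-intact cells. The SD over the 3 arrays of a group ran between 0.077 (Epor) and 1.67 (Slc4a1) in Cdh1-deficient cells, and between 0.34 (Epor) and 2.56 (Alas2) in Cdh1-intact cells. Cdh1-intact array 1 had the highest level of 7 of the 9 genes, and Cdh1-deficient array 2 was second for the same 7. Over all genes 3.49% had this pair of arrays in first and second place. Within the Cdh1-deficient group the order from array 2 through array 3 to array 1, high to low, held for 8 of the 9 genes, against 16.4% of all genes. The median span between the highest and the lowest array was 2.83 for the 9 genes and 0.54 for all genes, on the log2 scale. The 9 genes share arrays and cells, so they are not independent readings of this order.

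**Figure D1:**
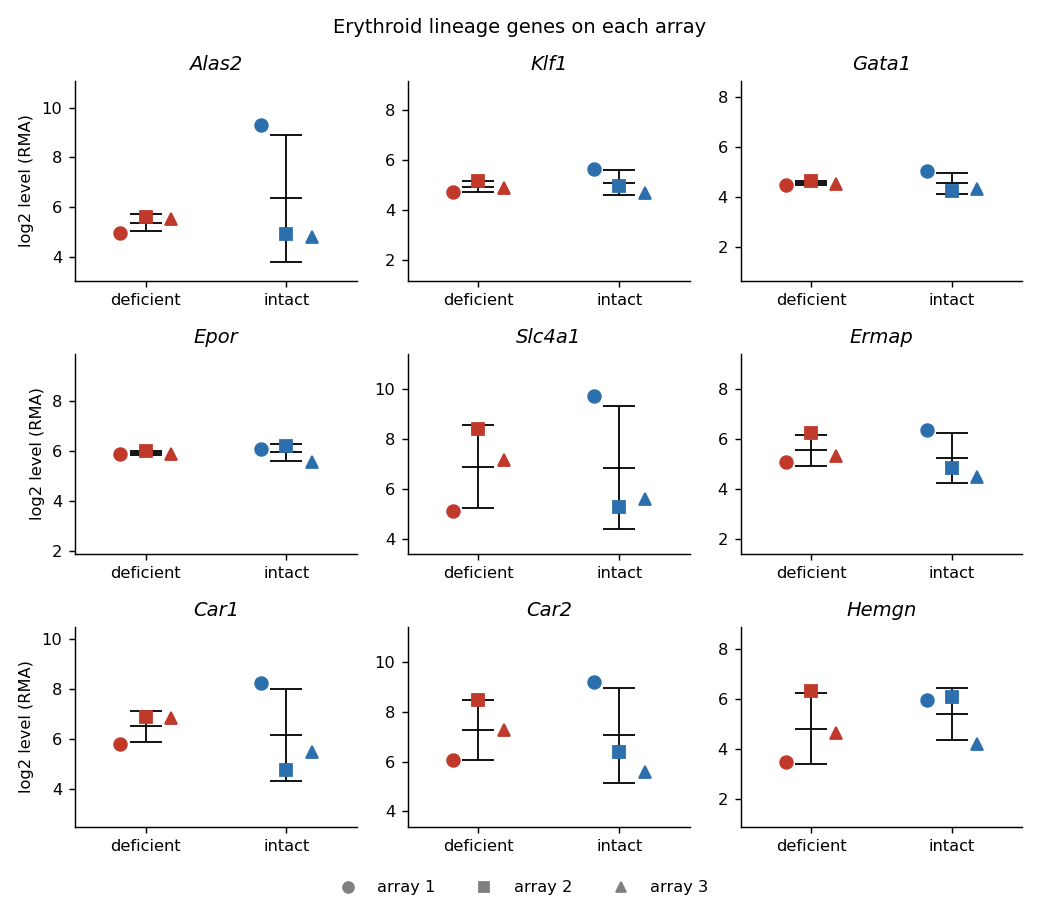
Log2 level (RMA, vertical axis) of each of the 9 genes on every array, with Cdh1-deficient arrays in red on the left and Cdh1-intact arrays in blue on the right. Symbols give the array number, black bars the mean and SD of 3 arrays, and every panel covers the same number of log2 units. Cdh1-intact array 1 (circle) is the highest point for 7 of the 9 genes, and the groups overlap in all 9 panels.

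Among the transcription factors, Gata1, the master regulator of red cell and megakaryocyte genes, spanned 0.79. It lay at 4.49, 4.64 and 4.53 on Cdh1-deficient arrays 1, 2 and 3, and at 5.04, 4.25 and 4.32 on Cdh1-intact arrays 1, 2 and 3. Only Cdh1-intact array 1 stood above the rest, by 0.40 over the highest Cdh1-deficient array. All 6 levels lay under their array medians, and whether a probe set read above background was not tested for any gene. Klf1, which activates adult beta-globin and many red cell genes, had levels of 4.73, 5.17 and 4.88 in Cdh1-deficient cells and 5.66, 4.96 and 4.68 in Cdh1-intact cells. The highest array was again Cdh1-intact 1, and the span over the 6 arrays was 0.98. Hemgn, a nuclear protein of blood progenitors and red cell precursors, lay at 3.48, 6.31 and 4.64 on the Cdh1-deficient arrays and at 5.97, 6.08 and 4.22 on the Cdh1-intact arrays. It was high on Cdh1-intact array 2, whereas Gata1 and Car1 were lowest there.

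Epor, the receptor for erythropoietin, was the flattest of the 9. Its levels were 5.88, 6.00 and 5.86 in Cdh1-deficient cells and 6.07, 6.21 and 5.56 in Cdh1-intact cells. The span was 0.64, near the median span of all genes, and the highest value was on Cdh1-intact array 2.

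The heme enzyme gene Alas2 had the most lopsided pattern. It lay at 4.98, 5.61 and 5.54 on the Cdh1-deficient arrays, and at 9.31, 4.94 and 4.82 on Cdh1-intact arrays 1, 2 and 3. Cdh1-intact array 1 exceeded the highest Cdh1-deficient array by 3.70 on the log2 scale. The lowest levels lay under the array medians. On Cdh1-deficient array 2, where Slc4a1 and Car2 were high, Alas2 was only 0.63 above Cdh1-deficient array 1.

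The surface gene Slc4a1 encodes band 3, the chloride-bicarbonate exchanger of the red cell membrane. It lay at 5.10, 8.40 and 7.17 in Cdh1-deficient cells and at 9.70, 5.25 and 5.60 in Cdh1-intact cells. High and low arrays occurred in both groups, and Cdh1-deficient array 2 lay 3.30 above Cdh1-deficient array 1. A second Slc4a1 probe set ran the same way, with 4.59, 8.40 and 8.18 in Cdh1-deficient and 10.02, 5.26 and 4.46 in Cdh1-intact cells. The third stayed between 3.44 and 4.16 on all 6 arrays and did not show the pattern. Ermap, a red cell membrane protein of the immunoglobulin superfamily that carries the Scianna blood group antigens in humans, lay at 5.07, 6.22 and 5.32 in Cdh1-deficient cells and at 6.35, 4.85 and 4.45 in Cdh1-intact cells. Here Cdh1-deficient array 2 came within 0.13 of Cdh1-intact array 1.

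The carbonic anhydrases interconvert carbon dioxide and bicarbonate. Car1, the abundant form of mature red cells, lay at 5.78, 6.87 and 6.85 on the Cdh1-deficient arrays and at 8.22, 4.74 and 5.47 on the Cdh1-intact arrays. Car2, also made in osteoclasts, kidney and other tissues, lay at 6.05, 8.48 and 7.27 on the Cdh1-deficient arrays and at 9.21, 6.38 and 5.58 on the Cdh1-intact arrays. Both were highest on Cdh1-intact array 1, and 2.75 and 2.82 above the next Cdh1-intact array. Car1 and Car2 lie close together on chromosome 3, in a cluster with Car13 and Car3. Car13, next to Car1, stayed between 3.39 and 3.54, and Car3, between Car1 and Car2, between 5.20 and 5.46. The levels of Car13 lay under the lower quartile of every array, so they show little about that gene. Of 14 other carbonic anhydrase genes none spanned 1 log2 unit, with a median span of 0.29. The list mean lay at 4.665 to 4.82, under the median of every array, and for genes that low a small span shows little. Car15, with the smallest p of them, differed by −0.26 (SE 0.15), and Car12, with the highest mean, lay at 8.33 to 8.37 in Cdh1-deficient and 8.05 to 8.87 in Cdh1-intact cells.

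**Figure D2:**
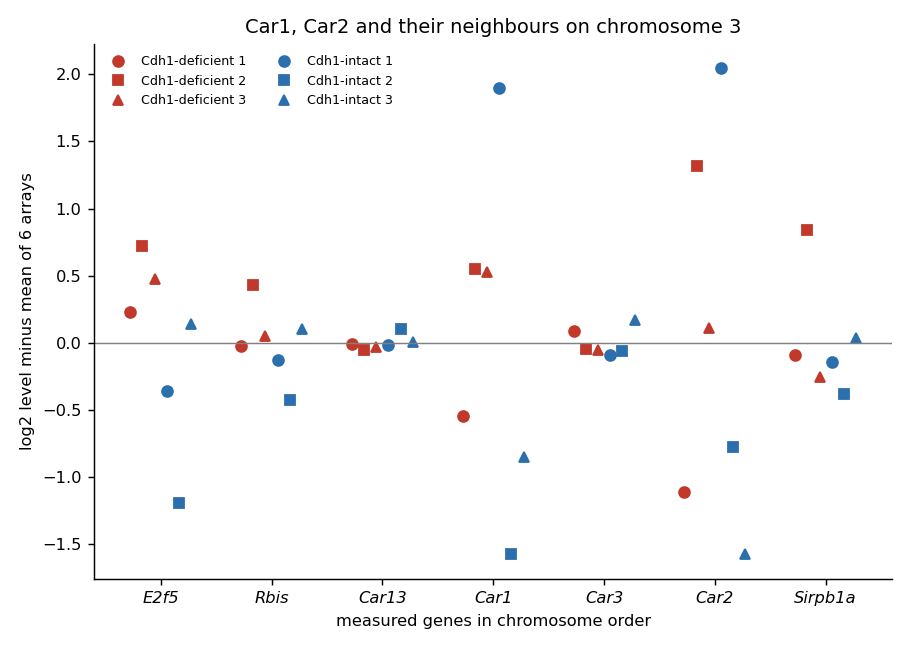
Log2 level minus the mean of the 6 arrays (vertical axis) for measured genes around Car1 and Car2, in their order along chromosome 3 (horizontal axis), with Cdh1-deficient arrays in red and Cdh1-intact arrays in blue. Car1 and Car2 spread over 3.48 and 3.62 log2 units, and Car13 and Car3 beside them over 0.16 and 0.26.

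Promoter sequences from RefSeq (GRCm38.p6) were at hand for 6 of the 9 genes, each covering 250 bases before the annotated start and 50 from it. The 5 below set 4 genes that were highest on Cdh1-intact array 1 beside the flat Epor. Of these 4, Gata1 and Klf1 also had small spans, 0.79 and 0.98. Capitals mark the GATA motif (AGATAA or TGATAA) and the CACCC-type motif of KLF factors (CCNCNCCC), each searched on both strands. Sequences run 5′ to 3′ along the gene.
Alas2 (chrX:150547167-150547466, plus strand): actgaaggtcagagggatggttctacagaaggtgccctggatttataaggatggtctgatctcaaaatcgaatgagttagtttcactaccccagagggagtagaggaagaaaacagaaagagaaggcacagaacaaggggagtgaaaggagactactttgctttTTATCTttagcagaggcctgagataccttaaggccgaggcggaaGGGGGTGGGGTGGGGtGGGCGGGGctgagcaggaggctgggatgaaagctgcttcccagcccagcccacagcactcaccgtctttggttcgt
Klf1 (chr8:84901732-84902031, plus strand): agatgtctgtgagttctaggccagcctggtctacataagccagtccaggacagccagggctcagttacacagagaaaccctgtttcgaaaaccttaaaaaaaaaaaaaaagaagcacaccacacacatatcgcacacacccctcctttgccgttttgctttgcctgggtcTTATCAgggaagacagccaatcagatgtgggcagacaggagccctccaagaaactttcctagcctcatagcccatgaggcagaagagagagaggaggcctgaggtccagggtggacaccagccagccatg
Gata1 (chrX:7967861-7968160, minus strand): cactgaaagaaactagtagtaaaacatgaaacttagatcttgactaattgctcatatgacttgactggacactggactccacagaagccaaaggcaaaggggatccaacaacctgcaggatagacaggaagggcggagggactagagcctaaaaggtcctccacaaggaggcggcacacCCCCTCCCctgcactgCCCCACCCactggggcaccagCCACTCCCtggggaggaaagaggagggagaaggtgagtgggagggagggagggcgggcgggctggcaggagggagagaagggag
Ermap (chr4:119189946-119190245, minus strand): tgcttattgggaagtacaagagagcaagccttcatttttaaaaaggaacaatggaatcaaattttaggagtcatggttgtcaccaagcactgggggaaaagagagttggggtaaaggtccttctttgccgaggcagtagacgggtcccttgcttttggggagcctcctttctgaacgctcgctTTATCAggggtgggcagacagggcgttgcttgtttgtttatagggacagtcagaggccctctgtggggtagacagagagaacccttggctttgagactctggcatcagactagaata
Epor (chr9:21963527-21963826, minus strand): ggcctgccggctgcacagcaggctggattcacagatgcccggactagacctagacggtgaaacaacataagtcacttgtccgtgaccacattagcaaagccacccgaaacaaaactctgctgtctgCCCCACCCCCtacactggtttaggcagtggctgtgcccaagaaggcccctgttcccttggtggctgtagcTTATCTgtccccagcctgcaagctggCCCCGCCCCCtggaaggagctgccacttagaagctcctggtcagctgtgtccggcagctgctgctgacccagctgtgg

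A GATA motif stood 86 bases before the start of Alas2, 80 before that of Klf1, 67 before that of Ermap and 54 before that of Epor. Of the 6 promoters 5 held it, all but that of Gata1, against 18.6% of 32851 promoter windows of the same length. The CACCC-type motif was found in 4 of the 6 and in 49.5% of all windows. It was in the windows of Alas2, Gata1 and Epor, and in that of Hemgn, not shown, and not in those of Klf1 and Ermap. Overlapping matches in Alas2 and Epor merge into longer capital runs. The 2 motifs did not overlap each other in the windows shown. The window of the flat Epor held both motifs. A match is a description of the sequence and says nothing on binding in these cells.

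The test between the groups used limma over all 18193 genes, with p-values adjusted by Benjamini-Hochberg. None of the 9 genes passed an adjusted p of 0.05, and 0 had an unadjusted p under 0.05. Over all genes 0% passed after adjustment, and 5.5% had an unadjusted p under 0.05. The arrays of the groups overlapped for all 9 genes, whereas 11.7% of all genes had groups that did not overlap. Adjusted p-values of the 9 ran between 0.892 and 0.998. With 3 arrays a group, each p-value sets the group difference against the spread between the mice of a group. limma moderates that spread over all genes.

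Differences are given as log2 values of Cdh1-deficient minus Cdh1-intact cells, each with limma's standard error (SE). Alas2 differed by −0.98 (SE 1.23), with 5.38 ± 0.35 in Cdh1-deficient and 6.36 ± 2.56 in Cdh1-intact cells (SD, n = 3 each). Hemgn differed by −0.61 (SE 0.84), Klf1 by −0.17 (SE 0.27) and Epor by −0.04 (SE 0.19). Car1 differed by 0.35 (SE 0.92), Ermap by 0.32 (SE 0.56), Car2 by 0.21 (SE 1.07), Slc4a1 by 0.04 (SE 1.42) and Gata1 by 0.02 (SE 0.23). The difference was smaller than its standard error for all 9. The median over the 9 was 0.02, and 0.0034 over all genes. For Slc4a1 the groups were alike in mean, 6.89 ± 1.67 in Cdh1-deficient and 6.85 ± 2.47 in Cdh1-intact cells, while the 6 arrays spanned 4.60.

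Leaving out single arrays changed the sign of some differences. Without Cdh1-intact array 1 it changed for 3 of the 9 genes, Alas2, Klf1 and Epor. The median was then 0.50, and 8 of the 9 genes were higher in Cdh1-deficient cells. Alas2 was at 0.50 (SE 0.23), Slc4a1 at 1.46 (SE 0.98), Car2 at 1.28 (SE 0.75) and Ermap at 0.89 (SE 0.38). Car1, at 1.39 (SE 0.43), had an unadjusted p of 0.024 in limma, as 3.41% of all genes had in that direction, and its adjusted p was 0.787. All 3 Cdh1-deficient arrays lay above Cdh1-intact arrays 2 and 3 for 4 genes, Alas2, Gata1, Ermap and Car1, where 12% of all genes did. Without Cdh1-intact array 2 the median was −0.25, with 7 of 9 lower in Cdh1-deficient cells and 0 at an unadjusted p under 0.05, against 6.17% of all genes. Without Cdh1-deficient array 2 it was −0.29, and Car2 was at −0.40 (SE 1.17).

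**Figure D3:**
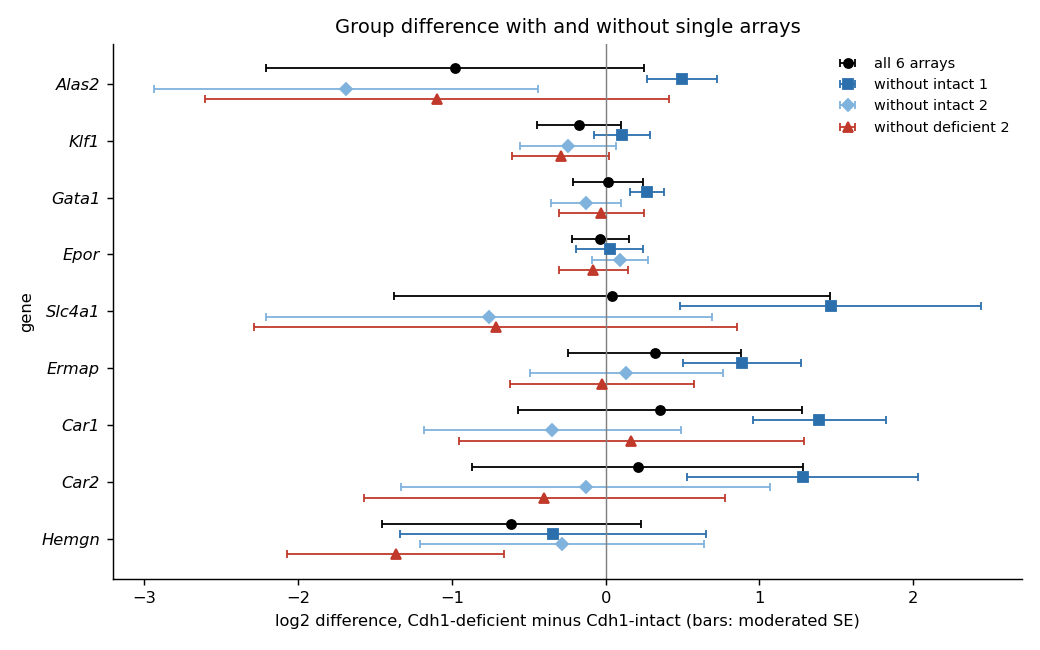
Log2 difference, Cdh1-deficient minus Cdh1-intact (horizontal axis), for each gene, with bars for the moderated standard error. Black circles use all 6 arrays, and the coloured symbols leave out 1 array each. Leaving out Cdh1-intact array 1 (blue squares) puts Alas2 at 0.50, against −0.98 with all arrays, and Slc4a1 at 1.46, against 0.04.

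The other red cell genes were read from lists written from textbook knowledge, with earlier results of these data known. No list member passed in limma, and the lowest adjusted p in any list was 0.849, the lowest over all genes. Of 14 measured genes of the red cell membrane and skeleton, 5 were higher and 9 lower in Cdh1-deficient cells, with a median difference of −0.05. 7 of the 14 were highest on Cdh1-intact array 1, against 20.4% of all genes. Rhd, a Rhesus blood group protein, had the smallest p of the list at a difference of 0.39 (SE 0.32). It lay at 5.85, 6.34 and 6.61 in Cdh1-deficient cells and at 6.43, 5.82 and 5.38 in Cdh1-intact cells. Gypc, the glycophorin C gene, which many cell types express, lay at 8.34 to 8.48 in Cdh1-deficient and 8.18 to 8.73 in Cdh1-intact cells. Rhag, the Rhesus-associated ammonium channel, is named here after its values were seen. It was high on Cdh1-deficient array 2 and Cdh1-intact array 1, with 3.59, 5.85 and 4.24 in Cdh1-deficient and 5.31, 3.22 and 3.32 in Cdh1-intact cells.

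Of 13 measured genes of heme synthesis and mitochondrial iron besides Alas2, 3 were highest on Cdh1-intact array 1, and 1 had Cdh1-deficient array 2 in second place. That gene was Fech, which encodes the enzyme that inserts iron into heme, named here after its values were seen. It lay at 8.65, 8.80 and 8.72 in Cdh1-deficient cells and at 9.56, 8.52 and 8.76 in Cdh1-intact cells. Its span of 1.04 came mostly from Cdh1-intact array 1, and the Cdh1-deficient arrays differed by at most 0.15. Alas1, the housekeeping form of the enzyme that Alas2 supplies in red cells, lay at 8.51, 8.51 and 8.42 in Cdh1-deficient cells and at 8.04, 8.16 and 8.27 in Cdh1-intact cells. The groups did not overlap, and the difference of 0.32 (SE 0.10) did not pass in limma (adjusted p = 0.849). Higher levels on all Cdh1-deficient arrays occurred for 6.65% of all genes. It was the 1 gene of the 13 measured in this list whose groups did not overlap. Slc25a39, a mitochondrial carrier, lay at 11.76 to 12.03 in Cdh1-deficient and 11.73 to 11.88 in Cdh1-intact cells. The list had a median span of 0.65, close to the 0.54 of all genes.

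Among 16 erythroid transcription factors and cofactors, 10 were higher and 6 lower in Cdh1-deficient cells. Many of them also act in B cells, and the list mean was lowest on Cdh1-intact array 2, at 6.43 against 7.62 to 7.88 elsewhere. Lyl1, a factor of stem cells and early B cells, had the smallest p, with 9.98, 9.48 and 9.96 in Cdh1-deficient and 8.64, 6.77 and 9.56 in Cdh1-intact cells. Its difference was 1.48 (SE 0.69), and 0.70 without Cdh1-intact array 2. Ikzf1, the lymphoid factor Ikaros, lay at 11.33 to 11.49 in Cdh1-deficient and 11.20 to 11.94 in Cdh1-intact cells.

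Of 13 genes of iron uptake and late maturation, 7 were highest on Cdh1-intact array 1. Tfrc, the transferrin receptor of all dividing cells, was level, at 11.54 to 11.76 in Cdh1-deficient and 11.43 to 11.86 in Cdh1-intact cells. Xpo7, a nuclear exporter needed for the condensing of the red cell nucleus, differed by 0.58 (SE 0.22, limma adjusted p = 0.849). It lay at 10.71, 10.91 and 11.13 in Cdh1-deficient and 10.15, 10.09 and 10.77 in Cdh1-intact cells, with overlap. Bpgm, which makes the 2,3-bisphosphoglycerate of red cells, and Tspan33, a tetraspanin of red cell precursors, are named after their values were seen. Bpgm lay at 6.72 to 6.91 in Cdh1-deficient cells and at 8.55, 7.34 and 6.78 in Cdh1-intact cells, high on the arrays 1 and 2. Tspan33 lay at 4.40, 5.46 and 4.47 in Cdh1-deficient and 6.62, 4.05 and 4.04 in Cdh1-intact cells.

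Of 12 measured signalling genes downstream of the erythropoietin receptor, 2 were highest on Cdh1-intact array 1, against 20.4% of all genes, and 1 had the order 2, 3, 1 on the Cdh1-deficient arrays, against 16.4%. Their median span was 0.86, and 4 of the 12 spanned over 1 log2 unit. Socs3, a feedback inhibitor of cytokine receptors, lay at 4.80, 6.64 and 4.15 in Cdh1-deficient cells and at 6.65, 7.56 and 6.81 in Cdh1-intact cells. The groups just failed to overlap, and the difference of −1.81 (SE 0.66) did not pass (limma adjusted p = 0.849). Lower levels on all Cdh1-deficient arrays occurred for 5.09% of all genes. Ptpn6, the phosphatase SHP-1 that ends erythropoietin signals, lay at 10.47 to 10.60 in Cdh1-deficient and 10.26 to 11.21 in Cdh1-intact cells.

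Probe sets shared by several adult globin genes put the arrays in much the same order as the red cell genes. Of the 6 globin genes with probe sets of their own, 0 had the order 2, 3, 1 on the Cdh1-deficient arrays. Some of these genes are also among those that the shared sets are annotated to, so this is no contrast between genes. Of these 6, Hbb-bh1 spanned 2.20 and the other 5 between 0.29 and 0.60. Hba-a1 lay at 3.27 to 3.61, under the lower quartile of every array, Hbb-y at 3.59 to 3.88 and Hba-a2 at 4.70 to 5.13. Levels this low show little about whether these genes follow the order. Hbb-b2 lay at 6.19, 6.33 and 6.67 in Cdh1-deficient cells and at 6.79, 6.25 and 6.25 in Cdh1-intact cells. Hbb-bh1, an embryonic beta-like globin, lay at 5.32, 5.55 and 6.75 in Cdh1-deficient and 5.09, 4.56 and 5.25 in Cdh1-intact cells, without overlap (difference 0.91, SE 0.41, limma adjusted p = 0.849). A further 4 probe sets are annotated to several adult globin genes at once and stand for no single gene. They were looked up after the other values were seen. The set shared by beta-globin genes lay at 9.13, 12.42 and 11.38 on the Cdh1-deficient arrays and at 13.67, 9.95 and 8.64 on the Cdh1-intact arrays. The brightest of the 3 sets shared by alpha-globin genes lay at 9.15, 12.86 and 11.82 on the Cdh1-deficient arrays and at 14.03, 10.38 and 8.11 on the Cdh1-intact arrays. All 4 sets put the 6 arrays in 1 order, Cdh1-intact 1, Cdh1-deficient 2, Cdh1-deficient 3, Cdh1-intact 2, Cdh1-deficient 1 and Cdh1-intact 3. Their spans ran between 5.03 and 7.00, against at most 4.60 for the 9 genes as read from 1 probe set each and 5.57 for the second Slc4a1 probe set.

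**Figure D4:**
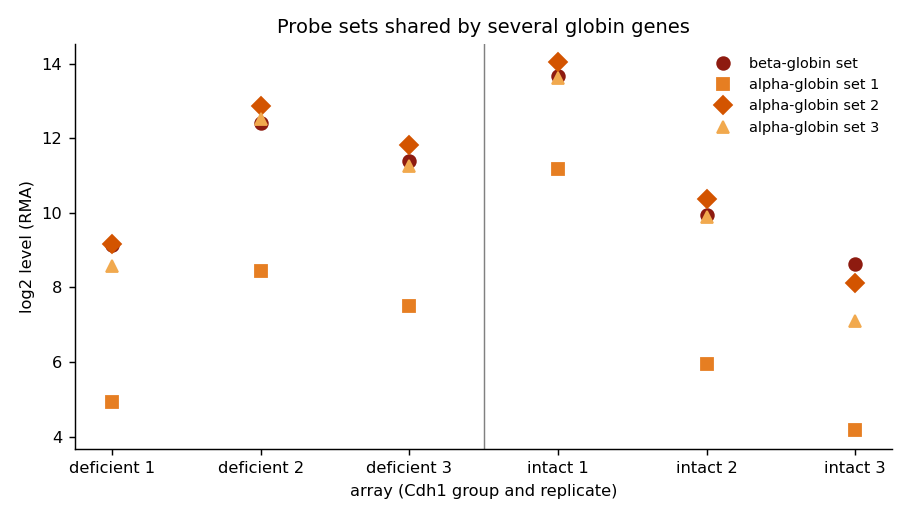
Log2 level (RMA, vertical axis) of 4 probe sets that the platform annotates to several adult globin genes each, on the Cdh1-deficient arrays (left) and the Cdh1-intact arrays (right). Points are single arrays, and all 4 sets are highest on Cdh1-intact array 1 and lowest on Cdh1-intact array 3.

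Markers of other blood cells moved with the red cell genes in part. The mean of 11 neutrophil genes was 8.96, 10.95 and 9.72 on Cdh1-deficient arrays 1, 2 and 3, and 9.73, 5.93 and 8.82 on Cdh1-intact arrays 1, 2 and 3. Within the Cdh1-deficient group this is the order of the red cell genes, and 9 of the 11 neutrophil genes held it singly. All 11 were highest on Cdh1-deficient array 2 and none on Cdh1-intact array 1, so the highest array was another one. S100a8, a calprotectin subunit, lay at 12.76, 13.87 and 13.30 in Cdh1-deficient and 13.31, 9.13 and 12.63 in Cdh1-intact cells. Mmp9, a gelatinase, lay at 6.76, 9.54 and 6.78 in Cdh1-deficient and 6.78, 4.57 and 6.22 in Cdh1-intact cells.

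Among the other lists, the one written for the macrophages that nurse red cell precursors came closest to the red cell genes on Cdh1-intact array 1. 12 of the 16 were highest there, and the list mean was 5.68, 5.78 and 5.78 in Cdh1-deficient cells and 6.66, 4.97 and 5.53 in Cdh1-intact cells. The order 2, 3, 1 on the Cdh1-deficient arrays held for 3 of the 16, or 18.75%, near the 16.4% of all genes. These values do not tell this kind of macrophage from others. Cd163, the hemoglobin scavenger receptor, and Vcam1, the adhesion molecule of erythroblastic islands, are given as examples chosen after their values were seen. Cd163 lay at 3.42, 3.90 and 3.98 in Cdh1-deficient and 6.55, 3.56 and 3.82 in Cdh1-intact cells, high on Cdh1-intact array 1 alone. Vcam1 lay at 6.63, 7.46 and 7.91 in Cdh1-deficient and 9.04, 5.01 and 5.61 in Cdh1-intact cells. Other genes of the list went another way. Cd68 and Slc40a1 were highest on Cdh1-deficient array 2. Emp1 was highest on Cdh1-deficient array 3, at 7.61, and lay at 3.60 on Cdh1-intact array 1. Maea, first described as an attachment protein of erythroblasts and macrophages and made widely, had another pattern, with 9.32, 9.01 and 9.25 in Cdh1-deficient and 8.74, 8.48 and 8.94 in Cdh1-intact cells. Its difference of 0.47 (SE 0.16) did not pass in limma (adjusted p = 0.849).

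Megakaryocytes share GATA1 with red cells. Of 13 megakaryocyte and platelet genes 7 were highest on Cdh1-intact array 1, but the list mean there was 5.13 against 4.76 to 4.83 elsewhere. Clec1b, the podoplanin receptor of platelets, lay at 3.34, 3.56 and 3.19 in Cdh1-deficient and 4.77, 3.48 and 3.40 in Cdh1-intact cells. Itga2b, the platelet integrin CD41, lay at 6.38 to 6.81 in Cdh1-deficient and 6.63 to 6.81 in Cdh1-intact cells. Mast cell, basophil and eosinophil genes, which GATA1 also serves, had list means of 4.17, 4.51 and 4.20 in Cdh1-deficient and 4.33, 3.99 and 4.05 in Cdh1-intact cells. The list mean was thus highest on Cdh1-deficient array 2 and next on Cdh1-intact array 1, the arrays that also led for the red cell genes. Of its 13 genes 6 were highest on Cdh1-deficient array 2, as were 2697 of all 18193 genes, and 2 on Cdh1-intact array 1. Prg2, the eosinophil major basic protein, lay at 3.70, 6.06 and 5.33 in Cdh1-deficient and 3.84, 3.34 and 4.10 in Cdh1-intact cells. Hdc, the histamine-making enzyme, lay at 5.63 to 6.12 in Cdh1-deficient and 5.49 to 6.18 in Cdh1-intact cells. The B-cell list mean was 7.50 to 7.92 in Cdh1-deficient cells and 7.72, 4.78 and 8.45 in Cdh1-intact cells, and 3 of the 11 genes were highest on Cdh1-intact array 1. Among T and NK cell genes, Cd3d lay at 5.09 to 5.41 in Cdh1-deficient cells and at 6.10, 12.55 and 8.69 in Cdh1-intact cells, and Zap70 at 7.79 to 8.20 and 8.01 to 8.26. Ms4a1, the B-cell surface protein CD20, lay at 10.36 to 10.78 in Cdh1-deficient cells and at 8.68, 3.97 and 10.87 in Cdh1-intact cells. The part of any of these cell types in the levels of the red cell genes was not tested.

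Counted by direction, 3 of 6 globin genes, 7 of 13 heme genes, 5 of 13 iron and maturation genes, 5 of 12 receptor signalling genes and 3 of 14 other carbonic anhydrase genes were higher in Cdh1-deficient cells. Their median differences lay between −0.07 and 0.07, close to the 0.0034 of all genes. Higher in Cdh1-deficient cells were also 3 of 13 megakaryocyte genes, 9 of 13 mast cell, basophil and eosinophil genes and 6 of 16 macrophage genes, with medians of −0.07, 0.08 and −0.08. The lists that Cdh1-intact array 2 set apart had larger medians, with 2 of 13 T and NK cell genes higher (−1.62), 7 of 11 B-cell genes (0.26) and 10 of 11 neutrophil genes (1.84). Without that array these 3 medians were −0.17, −0.46 and 0.65, and those of the iron and macrophage lists −0.21 and −0.23. Without Cdh1-intact array 1 the medians of the membrane, iron and macrophage lists were 0.09, 0.06 and 0.28.

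**Figure D5:**
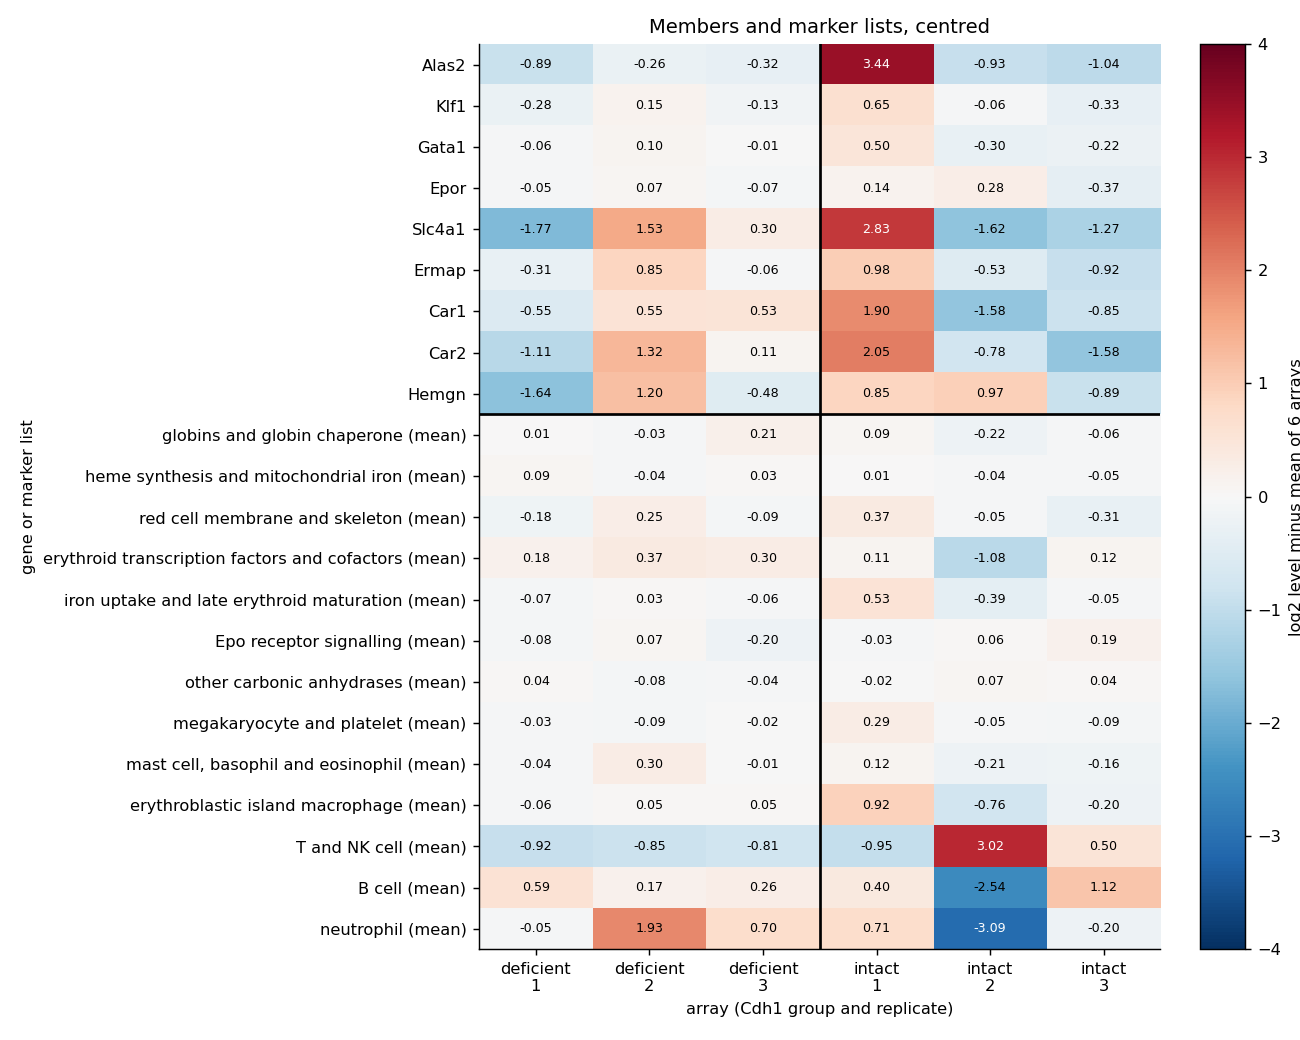
Log2 level minus the mean of the 6 arrays (colour and printed value) for the 9 genes (top) and for the mean of each marker list (bottom), with arrays of the Cdh1-deficient group on the left and of the Cdh1-intact group on the right. Of the 9 red cell genes 7 are highest on Cdh1-intact array 1, where the macrophage list (mean 6.66) is also highest, whereas the T and NK cell list (mean 8.82) is highest on Cdh1-intact array 2 and the neutrophil list (mean 10.95) on Cdh1-deficient array 2.

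The genes most like each member were found by the root-mean-square difference of levels centred on their own means over the 6 arrays, for the 6 members that spanned at least 1 log2 unit. The members themselves and predicted genes without a proper symbol were not among the candidates. The measure is descriptive, over 6 arrays, and the closest of so many genes will look alike by choice. Nearest to Alas2 were Tent5c, a poly(A) polymerase (0.45), and the kinase gene Pim2 (0.49), both highest on Cdh1-intact array 1 at 9.19 and 11.50. Nearest to Slc4a1 were the histone H3 genes H3c7 (0.49) and H3c4 (0.60), though the member Car2 (0.57) was nearer than H3c4. Nearest to Car2 were the water channel gene Aqp1 (0.38), itself a red cell membrane protein, and Ctse, the protease cathepsin E (0.40). Nearest to Car1 were Vcam1 (0.33) and Wdfy3 (0.38). Ermap was nearest to the tyrosine kinase gene Fes (0.23), abundant in myeloid cells, and to Kifc5b (0.24). Hemgn was nearest to Id2 (0.27), a regulator of lymphoid and myeloid fate, and Zmat3 (0.36). Like Hemgn, Id2 was high on Cdh1-intact array 2, at 8.96.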

How the data were processed

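Expression was measured on 6 one-colour Affymetrix arrays, 3 Cdh1-deficient and 3 Cdh1-intact, grouped by sample title. The deposited values are log2 levels of 45101 probe sets. Per the submitters' processing notes the authors ran RMA, with no version stated. Because RMA equalizes the arrays, a change of total RNA per cell is hidden. Precision is limited by the number of arrays. Names came from the platform annotation of 2016. The 64 control sets and 932 sets with several symbols were left out, and 34945 sets with 1 symbol gave 18193 genes. Chromosomes and gene order came from a RefSeq table of GRCm38.p6, and no build is stated for the arrays themselves.

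Group differences were fitted by limma 3.58.1 under R 4.3.3, using lmFit and eBayes with no trend and two-sided p-values, with Benjamini-Hochberg adjustment over all genes. The code was tested on simulated data. Exact permutation of 3 against 3 arrays cannot give a p below 0.1 and was not used. The members and the 13 other lists (165 of 184 listed genes measured) were chosen with earlier results of these data known. Genes named were all members, the gene of highest mean and of smallest p in each list, Fzr1 and Mycn. For each member with a span of at least 1, the 2 nearest genes outside the members were also named, passing over predicted genes. Car13 and Car3 were added for their position beside Car1 and Car2, and the others are said to be chosen after their values were seen. Alternatives were leaving out each array, repeated quantile normalization, median centring, the mean of all probe sets, leaving out sets whose suffix marks shared targets, testing every probe set, 2 filters on level, trend with robust estimation, array weights and the replicate number as a block.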

Additional observations from a re-analysis of the deposited data

How the results depend on the processing

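No member and no list gene that was tested passed an adjusted p of 0.05 in limma under any of the 16 alternatives, and 0 of all genes did. The lowest adjusted p of a member over these was 0.575. With 1 array left out, the median difference of the members ran between −0.38 and 0.50, the difference of Alas2 between −1.75 and 0.50, Klf1 −0.38 and 0.11, Gata1 −0.13 and 0.27, Epor −0.23 and 0.094, Slc4a1 −0.76 and 1.46, Ermap −0.064 and 0.89, Car1 −0.35 and 1.39, Car2 −0.53 and 1.28, and Hemgn −1.36 and 0.052 (log2). All 9 members thus changed sign in at least 1 of these fits. None of the other genes with a stated difference did, but those were named for the smallest p of their list. That choice favours a stable sign, so the members cannot be set against them on this. Among the 10 alternatives that keep all arrays, Slc4a1 turned to −0.018 with repeated quantile normalization, and with array weights Gata1 turned to −0.016, Epor to 0.0016 and Slc4a1 to −0.14. The cause was not tested. With the mean of all probe sets Xpo7 was at 0.28 and Maea at 0.22, and Socs3 was at −0.86 without shared-target suffixes. Without Cdh1-deficient array 3 Hbb-bh1 was at 0.47. Leaving out shared-target suffixes removed Alas2, whose probe set carries one. Leaving out levels below the median kept 3 of the 9 members, Slc4a1, Car1 and Car2, with a median difference of 0.21, so the other 6 were not tested there. With the replicate block 0 members passed, 0 had an unadjusted p under 0.05, the median difference was 0.02 and 975 of all genes had an unadjusted p under 0.05. The correlations of same-numbered arrays' deviations over genes were −0.14, 0.01 and 0.04, and those of differently numbered arrays ran between −0.21 and 0.22. By this check the numbers showed no pairing, but it cannot exclude one. With 3 arrays a group, the standard errors of the members' differences ran between 0.19 and 1.42 on the log2 scale.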
